A study of Homo sapiens with 6 samples.

Results

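Antisense long non-coding RNA genes (named for the gene they lie beside, with the ending -AS and a number) were followed in A375 human melanoma cells that had lost RIPK4. They were selected on their raw counts. Of 20851 gene names in the deposited table, 698 end in -AS and a number, 9 further names are suffixed copies and were left out, and 218 antisense genes reached a mean of at least 20 raw counts over the 6 libraries. The names just below that minimum were RNF207-AS1, SOCS2-AS1 and PPM1F-AS1, with means of 19.2, 19.3 and 19.8, and PAXBP1-AS1, PTPRD-AS1 and DNAJC9-AS1 sat on it at 20. Each antisense gene was paired with the gene named before -AS, called the sense gene here. The sense gene was listed for 207 of them (206 different genes, since DLGAP1-AS1 and DLGAP1-AS2 share DLGAP1) and not listed for 11.

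Antisense transcripts are made from the DNA strand opposite to a gene. Some start beside that gene's own start and run the other way, so that both share one promoter region, and others start within or past the gene and run back across it. Antisense RNAs are usually scarcer than the messenger RNA beside them, many are held in the nucleus, and many are trimmed or degraded by the nuclear exosome. Single antisense RNAs are known that lower, raise or leave unchanged the level of the gene opposite to them.

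A375 is an established human melanoma line. The 3 A375RIPK4.KO libraries come from clone #1, made with a lentiviral CRISPR/Cas9 guide RNA against RIPK4, a protein kinase, and the 3 A375neg libraries come from cells given a nontargeting guide RNA, which the labels call a GFP control. Because every knockout library is of 1 clone, loss of RIPK4 and differences between clones cannot be told apart in any comparison below. The labels name GFP for the controls only, so any difference that goes with GFP cannot be told apart either. Poly(A)-enriched, strand-specific libraries were counted by gene, with 21882863 to 26694140 counts per library, and a count of 0 in a library allows up to 3 counts (0.112 to 0.137 CPM, counts scaled by library total), which covers counting error only. RIPK4 itself had 319, 368 and 404 raw counts in A375neg and 42, 51 and 61 in A375RIPK4.KO. Of the lineage markers, SOX10 (9128 and 7962 normalized counts on average in A375neg and A375RIPK4.KO) and MITF (471 and 346) were present, S100B and S100A1 were called lower, PMEL had at most 22 raw counts and TYRP1 at most 8, and MLANA, TYR and DCT were not listed. The leukocyte marker PTPRC had at most 3 raw counts in any library, and the epithelial markers EPCAM and KRT5 at most 6 and 11. A375RIPK4.KO replicate 2 stood apart from the other knockout libraries on the second principal component (14.9% of the variance, score −34.6 against 25.7 and 14.1), and results that rest on it are given without it as well.

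The promoter windows of 6 antisense genes are shown before the values, as examples of the arrangements described below. Each runs from 250 bases before the start of the antisense gene to 50 bases after it, 5′ to 3′ on the antisense strand, as RefSeq gives it for GRCh38.p14. In the first pair of windows the sense gene starts on the other strand within the same window, and capitals mark the bases between the starts of the antisense and sense genes, 136 for HHIP and 96 for UBAC2. These are the head-to-head pairs in which the sense gene was called higher in A375RIPK4.KO.
HHIP-AS1, chr4:144645970-144646269, minus strand: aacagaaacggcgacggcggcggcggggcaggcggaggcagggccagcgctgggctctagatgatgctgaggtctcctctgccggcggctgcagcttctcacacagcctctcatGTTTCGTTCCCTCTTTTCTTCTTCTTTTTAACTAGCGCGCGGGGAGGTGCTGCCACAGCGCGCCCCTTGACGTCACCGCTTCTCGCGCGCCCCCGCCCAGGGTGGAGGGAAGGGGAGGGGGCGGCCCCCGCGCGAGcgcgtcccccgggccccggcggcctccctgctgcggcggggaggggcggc
UBAC2-AS1, chr13:99200708-99201007, minus strand: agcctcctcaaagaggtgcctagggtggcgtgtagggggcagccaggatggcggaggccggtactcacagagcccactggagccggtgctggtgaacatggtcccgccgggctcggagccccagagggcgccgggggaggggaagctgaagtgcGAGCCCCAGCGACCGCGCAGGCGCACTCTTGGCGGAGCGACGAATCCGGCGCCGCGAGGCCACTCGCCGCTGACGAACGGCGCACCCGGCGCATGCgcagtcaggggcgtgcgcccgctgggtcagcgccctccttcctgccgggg
The next 4 windows belong to antisense genes that start inside or past their sense gene, more than 1000 bases from its outermost start, and were called changed. Throughout, the start of a gene is the outer end of its whole RefSeq span on its strand. Other starts within a sense gene were not considered, so an antisense gene placed here may lie close to such a start. Capitals mark each CG dinucleotide, the site of DNA methylation, of which RUNX3-AS1 holds 42, PRR7-AS1 11, FGF13-AS1 13 and SLCO4A1-AS1 13.
RUNX3-AS1, chr1:24930207-24930506, plus strand: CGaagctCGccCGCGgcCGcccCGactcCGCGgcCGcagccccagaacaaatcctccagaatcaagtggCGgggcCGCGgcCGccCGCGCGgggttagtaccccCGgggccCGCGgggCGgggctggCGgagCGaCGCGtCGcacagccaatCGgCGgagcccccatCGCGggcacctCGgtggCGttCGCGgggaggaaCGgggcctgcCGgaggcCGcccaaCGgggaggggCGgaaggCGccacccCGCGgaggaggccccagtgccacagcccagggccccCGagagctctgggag
PRR7-AS1, chr5:177447895-177448194, minus strand: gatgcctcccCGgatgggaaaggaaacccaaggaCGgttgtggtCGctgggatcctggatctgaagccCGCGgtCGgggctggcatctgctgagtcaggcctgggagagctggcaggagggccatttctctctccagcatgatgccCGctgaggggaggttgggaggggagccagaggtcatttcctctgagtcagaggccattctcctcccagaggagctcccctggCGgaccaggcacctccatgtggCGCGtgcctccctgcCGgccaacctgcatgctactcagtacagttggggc
FGF13-AS1, chrX:138711857-138712156, plus strand: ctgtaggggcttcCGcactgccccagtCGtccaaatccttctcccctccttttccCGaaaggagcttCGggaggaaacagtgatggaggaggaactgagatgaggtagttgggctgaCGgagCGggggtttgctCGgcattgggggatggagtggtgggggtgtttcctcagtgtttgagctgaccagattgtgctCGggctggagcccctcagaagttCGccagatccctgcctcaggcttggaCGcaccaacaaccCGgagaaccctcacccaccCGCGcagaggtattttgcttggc
SLCO4A1-AS1, chr20:62666572-62666871, minus strand: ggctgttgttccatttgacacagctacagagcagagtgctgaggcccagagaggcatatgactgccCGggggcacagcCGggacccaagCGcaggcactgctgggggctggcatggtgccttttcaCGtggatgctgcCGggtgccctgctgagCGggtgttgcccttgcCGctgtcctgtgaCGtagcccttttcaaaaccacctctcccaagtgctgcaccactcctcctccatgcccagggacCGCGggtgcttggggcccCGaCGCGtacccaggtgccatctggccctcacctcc

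Promoter windows were found for 177 of the 218 antisense genes, and 130 of these (73.4%) were CpG-rich, taken as a GC content of at least 50% with an observed-to-expected CpG ratio of at least 0.6. The same held for 79.0% of the windows of genes tested and 46.9% of all 27305 RefSeq windows. Windows of head-to-head antisense genes (starts within 1000 bases of the sense start) were CpG-rich in 58 of 64 (90.6%), and those of overlapping antisense genes in 60 of 93 (64.5%). Of the 12 called antisense genes with a window, 6 were CpG-rich. On both strands the TATA box TATAAA was found in 3.95% of the antisense windows (11.95% of all RefSeq windows and 5.79% of those of genes tested). The AP-1 site TGANTCA was found in 5.65% (7.76% and 4.93%), and the E-box CACGTG in 9.04% (7.43% and 10.04%), so for both the direction turned with the set compared. The PRR7-AS1 window holds TGANTCA and the SLCO4A1-AS1 window holds CACGTG, and a match of letters is not a bound site.

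The antisense genes were low in count. Their median mean count was 59 against 509.5 over all genes tested, 99 lay under a mean of 50 and 40 reached 200. All 218 passed edgeR's filter on low counts. For 24 of them 1 of the groups had a mean under 20, so that the other group carried them past the minimum.

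In the RIPK4 knockout clone 16 antisense genes were called changed, 8 higher and 8 lower than in A375neg. The largest rises were in HHIP-AS1 (9.70-fold) and FGF14-AS2 (4.57-fold), and the largest falls in KLRK1-AS1 (3.86-fold) and RUNX3-AS1 (to 0.333 of the A375neg level). A gene was called at an adjusted p under 0.05 (edgeR's quasi-likelihood test, Benjamini-Hochberg over the 14443 genes tested) and a change of at least 1.5-fold. The 16 are 7.34% of the antisense genes, where 9.04% of all genes tested were called, 4.39% of them higher and 4.65% lower, and 10.7% of the 674 other long non-coding RNA rows with a mean of at least 20 were called. The antisense share was therefore no larger than the background. The median log2 fold change was −0.02 over the antisense genes and −0.005 over all genes, and 107 antisense genes lay above 0 and 111 below. Control and knockout counts did not overlap for 60 antisense genes (27.5%, against 36.5% of all genes tested), the 16 called genes among them. Of the 16, 6 (HHIP-AS1, FGF14-AS2, KLRK1-AS1, FGF13-AS1, SLC25A34-AS1 and IGF2BP2-AS1) had a mean under 20 in 1 group. Among the 194 antisense genes with a mean of at least 20 in both groups, 10 were called. With A375neg replicates 1, 2 or 3 left out in turn 7, 7 and 10 antisense genes were called, and with A375RIPK4.KO replicates 1, 2 or 3 left out 11, 13 and 6. The share of all genes called moved less, to 7.14% at the lowest and 8.95% at the highest. HHIP-AS1, FGF14-AS2, KLRK1-AS1, RUNX3-AS1, PRR7-AS1 and SLCO4A1-AS1 were called in all 10 alternative fits (another tool or scaling, no filter, a replicate block and each library left out), and the other 10 genes lost the call in some. A minimum mean of 50 raw counts in place of 20 leaves out 7 of the 16, HHIP-AS1, FGF14-AS2 and KLRK1-AS1 among them.

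**Figure D1:**
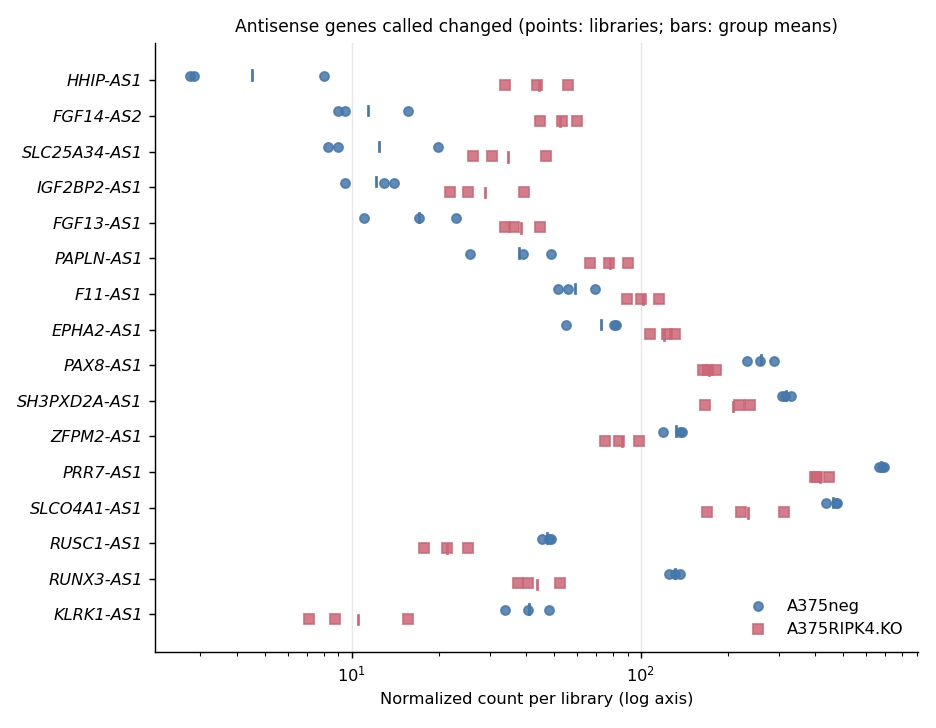
Normalized counts (log axis) of the 16 antisense genes called changed, ordered by log2 fold change, with blue circles for the 3 A375neg and red squares for the 3 A375RIPK4.KO libraries and short bars for group means. The libraries of the groups do not overlap for any of the 16, HHIP-AS1 shows the widest gap, and the genes range from under 10 to about 690 normalized counts.

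Both genes of a pair were called in 4 of the 195 pairs in which both were tested (2.05%), beside 1.03% of 2328 other opposite-strand pairs of neighbouring genes. In 3 of these, HHIP, FGF13 and SLCO4A1, both genes changed in the same direction, and in the fourth, ZFPM2, in opposite directions. The number depends on single calls close to the threshold: 3 pairs were called without A375neg replicate 1, and 2 without any other single library, without the filter on low counts or with a mean of at least 50. HHIP-AS1 and FGF13-AS1 reached the minimum of 20 through the knockout group.

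The pair of HHIP rose most. HHIP encodes a membrane protein that binds Hedgehog ligands and lowers Hedgehog signalling. HHIP-AS1, which spans 144642916 to 144646019 on the minus strand of chromosome 4, had 8, 3 and 3 raw counts in A375neg and 31, 42 and 55 in A375RIPK4.KO. Its normalized count (raw counts scaled to a common library size) was 4.54 ± 3.0 (SD, n = 3) in A375neg and 44.5 ± 11.0 (SD, n = 3) in A375RIPK4.KO, a log2 fold change of 3.28 (SE 0.46, adjusted p = 0.00122). HHIP, whose start lies 137 bases away on the plus strand, had 25, 32 and 41 raw counts in A375neg and 308, 241 and 294 in A375RIPK4.KO, a log2 fold change of 3.24 (SE 0.21, adjusted p = 1.42e-05). Every knockout library was above every control library for both genes, and both calls held in all 10 alternative fits. The log2 ratio of antisense to sense was −2.41 ± 0.87 (SD, n = 3) in A375neg and −2.69 ± 0.47 (SD, n = 3) in A375RIPK4.KO, a difference of −0.28 with overlapping groups (two-sided exact permutation test, p = 0.8). Per kilobase of exon, the mean level of HHIP-AS1 was 2.91 normalized counts in A375neg and 28.6 in A375RIPK4.KO, and that of HHIP 2.58 and 24.5. In the windows above, HHIP and HHIP-AS1 share 236 bases.

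FGF13 encodes an intracellular member of the fibroblast growth factor family that binds voltage-gated sodium channels. FGF13-AS1, which spans 138712107 to 138716605 on the plus strand of chromosome X, had 23, 12 and 18 raw counts in A375neg and 31, 35 and 44 in A375RIPK4.KO, a log2 fold change of 1.17 (SE 0.34, adjusted p = 0.044). FGF13 had 782, 907 and 860 raw counts in A375neg and 1199, 1352 and 1391 in A375RIPK4.KO, a log2 fold change of 0.76 (SE 0.07, adjusted p = 8.66e-05). The groups did not overlap for either gene. The antisense call is the weaker of the pair: FGF13-AS1 was no longer called with DESeq2 (adjusted p = 0.0531) or when any library other than A375neg replicate 1 was left out (adjusted p up to 0.156), whereas FGF13 was called in all 10 alternative fits.

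SLCO4A1 encodes an organic anion transporter of the plasma membrane. SLCO4A1-AS1, which spans 62663027 to 62666621 on the minus strand of chromosome 20, had 477, 512 and 460 raw counts in A375neg and 155, 300 and 219 in A375RIPK4.KO, a log2 fold change of −0.97 (SE 0.19, adjusted p = 0.00854). SLCO4A1 had 4056, 4825 and 4575 raw counts in A375neg and 2396, 2605 and 2505 in A375RIPK4.KO, a log2 fold change of −0.70 (SE 0.06, adjusted p = 8.66e-05). Both were lower in every knockout library and kept their calls in all 10 alternative fits. The knockout libraries were further apart for the antisense gene (normalized count 234.9 ± 72.7, SD, n = 3) than for the sense gene (2626 ± 89.8, SD, n = 3). Of the exon bases of SLCO4A1-AS1, 22.6% lie opposite exons of SLCO4A1.

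ZFPM2, a zinc finger cofactor of GATA transcription factors, and its antisense gene moved apart. ZFPM2-AS1 had 137, 151 and 126 raw counts in A375neg and 77, 72 and 97 in A375RIPK4.KO, a log2 fold change of −0.62 (SE 0.18, adjusted p = 0.0471). ZFPM2 had 1167, 1151 and 1275 raw counts in A375neg and 2282, 2312 and 2437 in A375RIPK4.KO, a log2 fold change of 1.10 (SE 0.07, adjusted p = 9.16e-06). The log2 ratio of antisense to sense went from −3.10 ± 0.20 (SD, n = 3) to −4.82 ± 0.18 (SD, n = 3) without overlap (exact two-sided permutation test, p = 0.1, which is the lowest value open to 3 against 3). No exon of ZFPM2-AS1 lies opposite an exon of ZFPM2. ZFPM2 was called in all 10 alternative fits, and ZFPM2-AS1 lost its call when any 1 library was left out (adjusted p up to 0.148), with no change of sign.

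**Figure D2:**
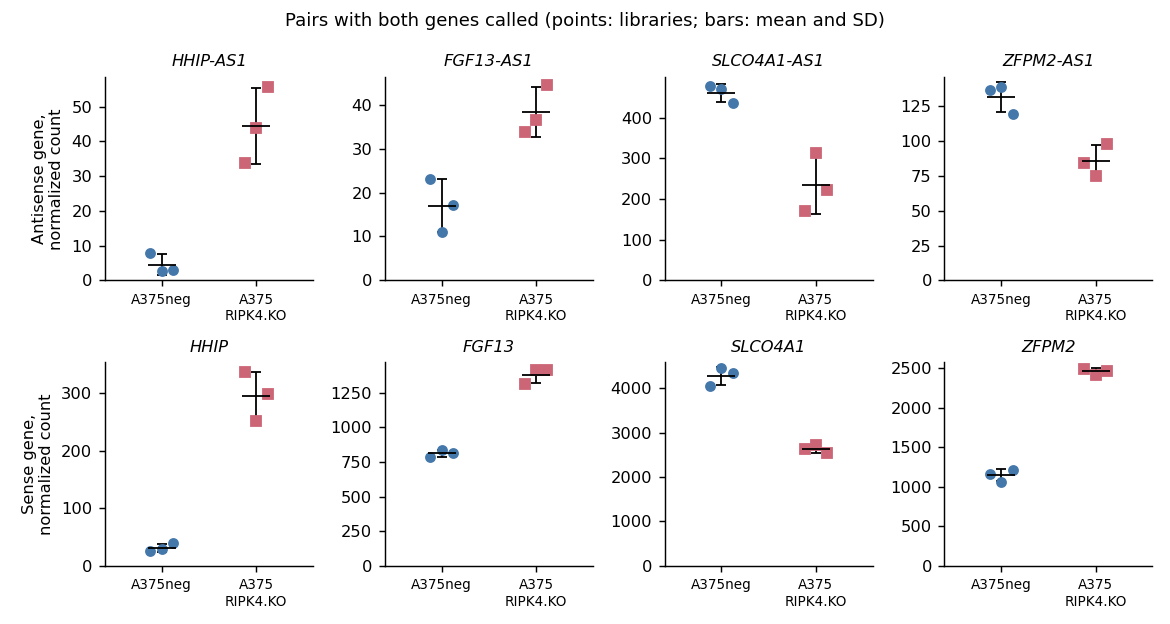
Normalized counts of the antisense gene (top row) and the sense gene (bottom row) for the 4 pairs with both genes called, each point 1 library and each bar the mean with its SD (n = 3), axes starting at 0. HHIP and FGF13 rise with their antisense genes, SLCO4A1 falls with its own, and ZFPM2 rises from about 1150 to about 2460 while ZFPM2-AS1 falls.

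In 9 pairs the antisense gene was called and the sense gene was not. RUNX3, a Runt-domain transcription factor, is the clearest of these by its values, although exon overlap within this pair was not measured. RUNX3-AS1, which spans 24930457 to 24964708 on the plus strand of chromosome 1, had 125, 142 and 144 raw counts in A375neg and 48, 39 and 37 in A375RIPK4.KO, a log2 fold change of −1.58 (SE 0.20, adjusted p = 0.000682). RUNX3 had 3494, 3753 and 3739 raw counts in A375neg and 3175, 3284 and 3246 in A375RIPK4.KO, a log2 fold change of −0.04 (SE 0.06, adjusted p = 0.653), and its normalized counts overlapped between the groups. The log2 ratio of RUNX3-AS1 to RUNX3 fell by 1.51, from −4.72 ± 0.05 to −6.23 ± 0.21 (SD, n = 3), with no overlap.

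PRR7 encodes a proline-rich membrane adaptor protein. PRR7-AS1, which spans 177437889 to 177447944 on the minus strand of chromosome 5, had 691, 720 and 717 raw counts in A375neg and 367, 427 and 400 in A375RIPK4.KO, a log2 fold change of −0.70 (SE 0.08, adjusted p = 0.000395). It is the most abundant of the called antisense genes and has the smallest adjusted p among them. PRR7 had 241, 324 and 344 raw counts in A375neg and 252, 270 and 272 in A375RIPK4.KO, a log2 fold change of −0.06 (SE 0.13, adjusted p = 0.824). Per kilobase of exon, PRR7-AS1 was above PRR7 in 6 of 6 libraries, with a mean of 399 normalized counts against 163 in A375neg and 245 against 157 in A375RIPK4.KO. RUNX3-AS1 and PRR7-AS1 were called in all 10 alternative fits.

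The other lower antisense genes with an uncalled sense gene were less firm. RUSC1-AS1 (49, 52 and 48 raw counts in A375neg, 23, 17 and 21 in A375RIPK4.KO) had a log2 fold change of −1.15 (adjusted p = 0.0156), beside −0.04 for RUSC1, an adaptor with RUN and SH3 domains. It lost its call without A375neg replicate 1, A375neg replicate 2 or A375RIPK4.KO replicate 3 (adjusted p up to 0.0645), and 19.7% of its exon bases lie opposite exons of FDPS. PAX8-AS1 (288, 280 and 245 raw counts, then 166, 163 and 162) had a log2 fold change of −0.59 (adjusted p = 0.0175), beside 0.09 for PAX8, a transcription factor of thyroid and kidney, and lost its call without A375neg replicates 1 or 2 or A375RIPK4.KO replicates 2 or 3 (adjusted p up to 0.0732). SH3PXD2A-AS1 (315, 359 and 324 raw counts, then 199, 229 and 164) had a log2 fold change of −0.61 (adjusted p = 0.0226). Its sense gene SH3PXD2A, which encodes the invadopodium scaffold TKS5, was also lower in every knockout library, by less (log2 fold change −0.28, adjusted p = 0.0526). The call of SH3PXD2A-AS1 was lost without any A375neg library or without A375RIPK4.KO replicate 3 (adjusted p up to 0.0855).

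Another 4 antisense genes were called higher beside a sense gene that was not called. PAPLN-AS1 had 39, 53 and 27 raw counts in A375neg and 71, 64 and 89 in A375RIPK4.KO (log2 fold change 1.05, adjusted p = 0.0314), while PAPLN, an extracellular matrix glycoprotein gene, had a log2 fold change of −0.78 (adjusted p = 0.325). SLC25A34-AS1 had 9, 9 and 21 raw counts and then 28, 45 and 26 (log2 fold change 1.47, adjusted p = 0.0455), while SLC25A34, of the mitochondrial carrier family, had 20, 15 and 14 and then 6, 10 and 10 (log2 fold change −0.78, adjusted p = 0.249). IGF2BP2-AS1 had 14, 14 and 10 raw counts and then 23, 21 and 39 (log2 fold change 1.25, adjusted p = 0.0491). IGF2BP2, an RNA-binding protein gene 205 times higher per kilobase in A375neg, had a log2 fold change of 0.01. EPHA2-AS1, whose start lies 854 bases from that of the ephrin receptor gene EPHA2, had 81, 89 and 58 raw counts and then 120, 103 and 121 (log2 fold change 0.73, adjusted p = 0.0463). EPHA2 was higher in every knockout library as well but under the fold limit (log2 fold change 0.32, adjusted p = 0.00727). The calls of all 4 antisense genes were lost in 4 or more of the 10 alternatives, leaving out A375neg replicate 1, A375RIPK4.KO replicate 1 or A375RIPK4.KO replicate 3 among them, with adjusted p up to 0.115 for PAPLN-AS1, 0.155 for SLC25A34-AS1, 0.209 for IGF2BP2-AS1 and 0.124 for EPHA2-AS1.

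The remaining 3 called antisense genes had no tested partner. FGF14-AS2, which spans 102394578 to 102395705 on the plus strand of chromosome 13, had 9, 17 and 10 raw counts in A375neg and 55, 51 and 44 in A375RIPK4.KO (log2 fold change 2.19, SE 0.32, adjusted p = 0.00162). FGF14, a sodium channel partner like FGF13, had 0, 0 and 0 raw counts and then 3, 2 and 2, at or under the limit of 3 counts, so no fold is given. KLRK1-AS1, named for the natural killer cell receptor NKG2D, had 34, 52 and 43 raw counts and then 8, 15 and 7 (log2 fold change −1.95, SE 0.37, adjusted p = 0.00623). F11-AS1, named for coagulation factor XI, had 56, 56 and 73 raw counts and then 106, 96 and 88 (log2 fold change 0.79, adjusted p = 0.0311). FGF14-AS2 and KLRK1-AS1 were called in all 10 alternative fits, and F11-AS1 lost its call without A375neg replicates 1 or 2 or A375RIPK4.KO replicates 1 or 3 (adjusted p up to 0.118). KLRK1 and F11 are not listed in the table.

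Of the 194 sense genes tested, 15 were called (7.73%, beside 9.04% of all genes tested), 6 higher and 9 lower, and in 11 of those pairs the antisense gene was not called. FLG, which encodes the keratinocyte protein filaggrin, fell most. It had 88, 67 and 60 raw counts in A375neg and 3, 2 and 0 in A375RIPK4.KO, at least 21.9-fold lower against a limit of 3 counts per library (adjusted p = 0.000242). FLG-AS1 had 365, 405 and 374 raw counts and then 428, 188 and 364, a log2 fold change of −0.08 (SE 0.25, adjusted p = 0.864). The low library of FLG-AS1 is A375RIPK4.KO replicate 2, and without it the log2 fold change was 0.20. With a prior count of 2 added to each normalized count, the log2 ratio of FLG-AS1 to FLG was 2.39 ± 0.32 in A375neg (SD, n = 3). In A375RIPK4.KO it was 6.54 ± 0.97 (SD, n = 3). The size of that second value rests largely on the prior count, because FLG lay at or under the limit of 3 counts there.

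MSC, a gene of the basic helix-loop-helix repressor musculin, fell as well: it had 363, 441 and 488 raw counts and then 99, 137 and 112 (log2 fold change −1.75, SE 0.16, adjusted p = 8.96e-05), and MSC-AS1 had 134, 132 and 113 and then 101, 98 and 98 (log2 fold change −0.22, SE 0.17, adjusted p = 0.44). PLXNB3, a semaphorin receptor gene, had 583, 675 and 648 raw counts and then 277, 220 and 267 (log2 fold change −1.18, adjusted p = 0.000145), beside a log2 fold change of −0.05 for PLXNB3-AS1 (adjusted p = 0.939), whose log2 fold change was 0.32 without A375neg replicate 2. ITGB2, the beta chain of leukocyte integrins, had 124, 147 and 127 raw counts and then 26, 31 and 22 (log2 fold change −2.19, adjusted p = 0.000156). ITGB2-AS1 was lower in every knockout library, with 42, 57 and 35 raw counts and then 22, 23 and 12, and did not pass the test (log2 fold change −1.08, SE 0.34, adjusted p = 0.0622). For MSC, PLXNB3 and ITGB2 the log2 ratio of antisense to sense was higher in each knockout library than in any control library, by 1.53, 1.19 and 1.08 on average. Such a gap between the groups was found in 45 of the 195 pairs with both genes tested (23.1%). It was found in 15 of the 24 with at least 1 called gene. Those 24 were picked for a called change, which itself favours such a gap. The share among the other opposite-strand pairs was not counted.

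CCDC144NL, which belongs to a family of near-identical copies so that its reads are uncertain, had 41, 33 and 46 raw counts in A375neg and 13, 2 and 5 in A375RIPK4.KO (log2 fold change −2.42, adjusted p = 0.0136). The far more abundant CCDC144NL-AS1 had 1340, 1307 and 1359 and then 923, 993 and 1071, with an adjusted p of 0.02 and a log2 fold change of −0.29, under the fold limit. Lower sense genes with an antisense gene that did not pass the test were ITGB8, the integrin chain that activates latent TGF-beta (log2 fold change −0.71 beside −0.16 for ITGB8-AS1), WDFY3, a scaffold of selective autophagy (−0.70 beside 0.08 for WDFY3-AS2, or −0.19 without A375neg replicate 1), and AP1G2, an adaptor subunit of vesicle transport (−0.66 beside −0.47 for AP1G2-AS1). Their antisense genes had adjusted p of 0.809, 0.911 and 0.385.

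Among the higher sense genes, UBAC2, a protein of the endoplasmic reticulum, had 1328, 1491 and 1449 raw counts in A375neg and 1836, 2238 and 2110 in A375RIPK4.KO (log2 fold change 0.67, SE 0.07, adjusted p = 0.000236). UBAC2-AS1, which starts 97 bases away on the other strand, had 17, 26 and 22 raw counts and then 27, 34 and 48 (log2 fold change 0.87, SE 0.31, adjusted p = 0.089). The groups did not overlap for either gene, and the log2 ratio of antisense to sense was −5.92 ± 0.20 and −5.79 ± 0.33 (SD, n = 3; two-sided exact permutation test, p = 0.7). TRHDE, which encodes the ectoenzyme that degrades thyrotropin-releasing hormone, had 2547, 2866 and 3120 raw counts and then 4351, 3794 and 4848 (log2 fold change 0.74, adjusted p = 0.00069), while TRHDE-AS1 had 739, 813 and 800 and then 846, 648 and 803 (log2 fold change 0.10, adjusted p = 0.57). TTC28, a tetratricopeptide repeat protein gene, had a log2 fold change of 0.62 (adjusted p = 0.0136) beside 0.30 for TTC28-AS1 (adjusted p = 0.328). Of the 15 called sense genes, 10 kept their call whichever library was left out. CCDC144NL lost its call without A375neg replicate 3 or A375RIPK4.KO replicate 3 (adjusted p up to 0.0607), and TTC28 without A375neg replicate 2 or A375RIPK4.KO replicate 1 (adjusted p up to 0.0614). ITGB8 fell under the fold limit without A375neg replicate 3 or A375RIPK4.KO replicate 2, with a log2 fold change of −0.57 at the smallest, and WDFY3 without A375RIPK4.KO replicate 2 (−0.54). AP1G2 lost its call without any A375neg library or without A375RIPK4.KO replicates 2 or 3 (adjusted p up to 0.164).

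**Figure D3:**
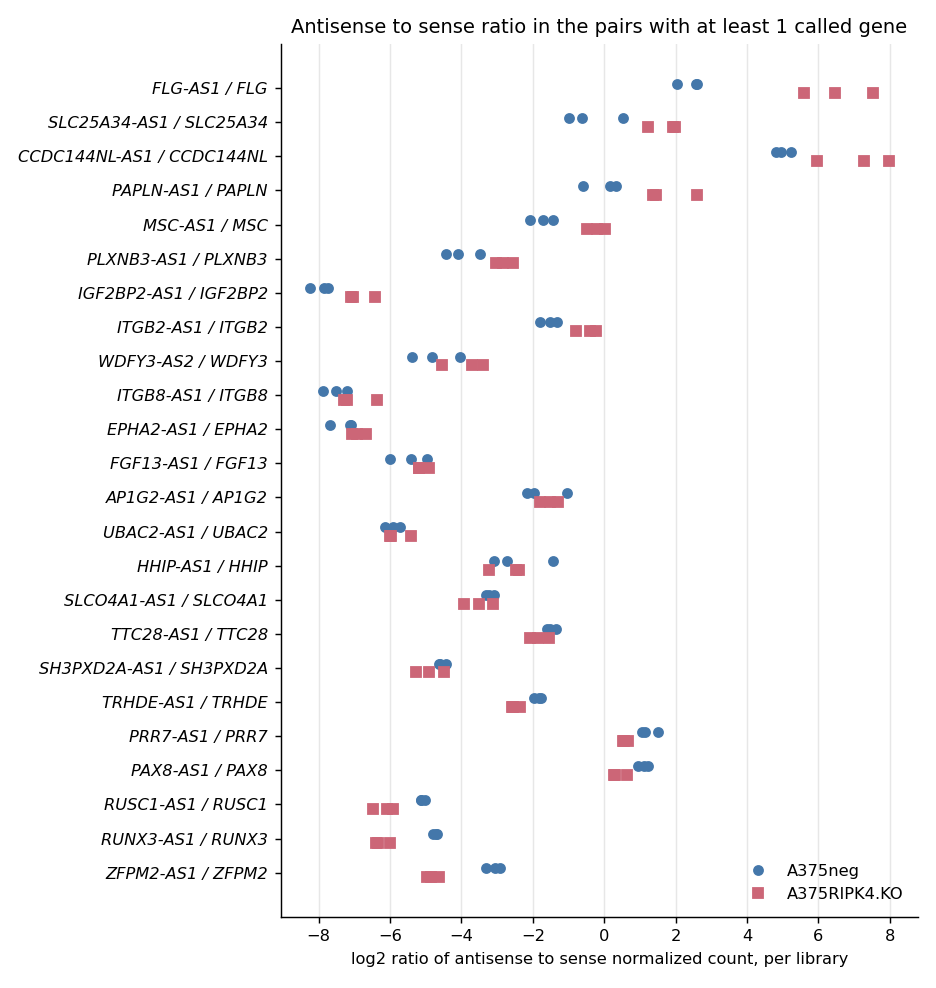
The log2 ratio of antisense to sense normalized count in each library for the 24 pairs with at least 1 called gene, with blue circles for A375neg and red squares for A375RIPK4.KO. The groups lie apart in 15 pairs, with the ratio higher in the knockout libraries in 9, FLG, CCDC144NL and SLC25A34 among them, and lower in 6 (TRHDE, PRR7, PAX8, RUSC1, RUNX3 and ZFPM2). The pairs were picked for a called change, which itself favours such a gap, and the share among other opposite-strand pairs was not counted. The size of the FLG ratio in the knockout libraries rests largely on the prior count added to each count.

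Over the 195 pairs with both genes tested, antisense and sense changed in the same direction in 113 (57.9%), beside 56.0% of the 2328 other opposite-strand pairs. In 58 both were higher and in 55 both lower in A375RIPK4.KO, in 40 the antisense gene was higher and the sense gene lower, and in 42 the reverse. This share rests on A375RIPK4.KO replicate 2. Without that library it was 50.5% (100 of 198 pairs), while leaving out any other library gave 55.9% to 60.2%. Among the other opposite-strand pairs the share without that library was 54.8%. Most of these signs belong to changes too small to call: in 171 of the 195 pairs neither gene was called. Of the 24 pairs with at least 1 called gene, 19 (79.2%) had the same sign, beside 133 of 198 (67.2%) of the other opposite-strand pairs with a called gene. Several of these signs rest on an uncalled partner near 0, and those of FLG-AS1, PLXNB3-AS1, TRHDE-AS1, PRR7 and IGF2BP2 turned when 1 library was left out. Over the 195 pairs, which come from the same 6 libraries, Pearson's r of the log2 fold changes was 0.30 and Spearman's rho 0.20, and without the HHIP pair 0.14 and 0.19.

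**Figure D4:**
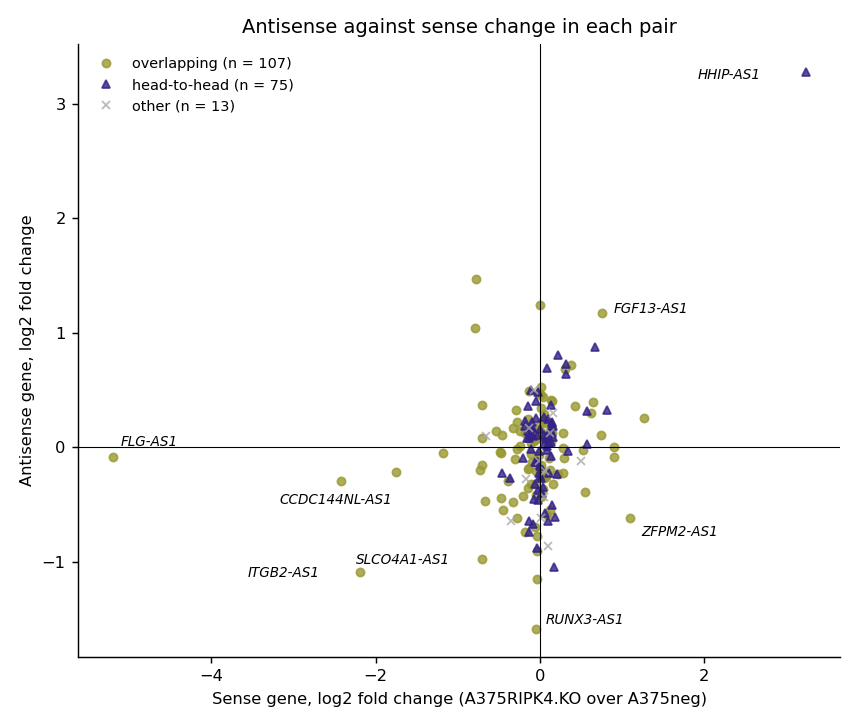
Log2 fold change of the antisense gene (vertical axis) against that of its sense gene (horizontal axis) for 195 pairs, with triangles for head-to-head, circles for overlapping and crosses for other pairs. Most pairs lie close to 0 on both axes, HHIP stands alone at the upper right, FLG lies far to the left with no antisense change, and RUNX3-AS1 lies low with no sense change.

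The pairs were then divided by position. In 75 pairs the starts lay within 1000 bases of each other on opposite strands (head-to-head, median distance 272 bases). In 31 of these the genes ran away from each other without overlap, and in the rest their beginnings overlapped. Both genes shared some exon bases in 39 of the 53 head-to-head pairs with GENCODE exons of both. In 118 pairs the genes overlapped with starts further apart, and 7 lay apart without overlap. In 7 pairs a gene of the pair had no matched position. Head-to-head antisense genes were called in 2 of 75 (2.67%, HHIP-AS1 and EPHA2-AS1), and overlapping ones in 12 of 118 (10.2%, 5 higher and 7 lower), beside 9.04% of all genes tested. Among these, HHIP-AS1 head-to-head and FGF14-AS2, FGF13-AS1, SLC25A34-AS1 and IGF2BP2-AS1 overlapping reached the minimum of 20 through the knockout group, where they are higher. The selection therefore favours such calls. EPHA2-AS1 lost its call in 7 of the 10 alternative fits. The share of pairs with the same sign was 57.3% (43 of 75) head-to-head and 60.7% (65 of 107 tested) overlapping, beside 57.0% of 1313 and 54.7% of 1015 other opposite-strand pairs of the same arrangement. This split was made over all 6 libraries only. Without A375RIPK4.KO replicate 2 the share over all pairs was 50.5%, beside 54.8% of other opposite-strand pairs, so the split may rest on that library too. The sense gene was called in 2 of 75 head-to-head pairs (HHIP and UBAC2) and in 13 of 107 overlapping pairs tested, beside 9.04% of all genes tested. Head-to-head, Pearson's r of the log2 fold changes was 0.72 with the HHIP pair and 0.29 without it (n = 74), and Spearman's rho 0.20 and 0.17. The difference between the arrangements was not tested.

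Whether reads of overlapping exons were assigned by strand is not given in the sources used here, although the libraries were strand-specific. In 110 of 149 pairs with exons of both genes in the GENCODE annotation, some antisense exon bases lay opposite sense exons, with a median of 8.21% over the 149 and at least 50% in 11. For called antisense genes this was 26.9% in SLC25A34-AS1, 22.6% in SLCO4A1-AS1, 14.6% in FGF13-AS1, 11.4% in HHIP-AS1, 11.3% in RUSC1-AS1 and 3.97% in PAX8-AS1. It was 0 in PRR7-AS1, FGF14-AS2, SH3PXD2A-AS1, ZFPM2-AS1 and IGF2BP2-AS1. For RUNX3-AS1, EPHA2-AS1 and PAPLN-AS1 it was not measured, because GENCODE exons of both genes were not matched. The part of such overlap in shared directions was not tested.

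Per kilobase of exon, antisense genes were usually below their sense gene. Of 149 pairs with lengths for both, the antisense level was lower in 6 of 6 libraries in 104, higher in 6 of 6 in 35 and mixed in 10, and the median ratio of sense to antisense in A375neg was 4.04. Some antisense genes, named here after their values were seen, exceeded a scarce sense gene by far in A375neg, such as AGAP2-AS1 (102 times) and DLGAP1-AS1 (73.2 times). At the other end, TPT1, a translation-associated gene of very high level, exceeded TPT1-AS1 2546 times in A375neg.

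The most abundant antisense genes did not change in A375RIPK4.KO by the call used here. CCDC144NL-AS1, described above, is among them and missed the call on the fold limit alone (log2 fold change −0.29, adjusted p = 0.02). BCAN-AS1 had 4959, 5057 and 5079 raw counts in A375neg and 4326, 4387 and 3938 in A375RIPK4.KO (log2 fold change −0.12, SE 0.07, adjusted p = 0.331). Its sense gene BCAN, the brain proteoglycan brevican, had at most 20 raw counts in any library. FGD5-AS1 had 3466, 3755 and 3987 and then 3272, 3186 and 3381 (log2 fold change −0.05, adjusted p = 0.635). OIP5-AS1, a conserved vertebrate long non-coding RNA, had 2037, 2187 and 2285 and then 2251, 1987 and 2213 (log2 fold change 0.12, adjusted p = 0.305), beside 0.28 for OIP5, a centromere gene (adjusted p = 0.0689). HSD17B1-AS1 had 882, 969 and 1015 and then 888, 1152 and 997 (log2 fold change 0.22, adjusted p = 0.149), beside at most 27 raw counts of the steroid dehydrogenase gene HSD17B1.

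Genes that end, process and degrade transcripts, or edit and sense double-stranded RNA, were nearly all uncalled. Of 66 such genes (the nuclear exosome and its adaptors, termination and cleavage factors, RNase H, decay, and double-stranded RNA editing and sensing), 64 were tested, none was called higher and 1 lower, beside 9.04% of all genes called. Their median log2 fold change was 0.02. The called gene is INTS3, a subunit of the Integrator complex that ends transcription of short non-coding RNAs, with 129, 136 and 47 raw counts in A375neg and 15, 19 and 16 in A375RIPK4.KO (log2 fold change −2.50, SE 0.41, adjusted p = 0.00317). Its counts differed widely among the A375neg libraries, with replicate 3 at less than the others, and its call held without each of them. MTREX, the helicase that feeds RNA to the exosome, RNASEH2B, a subunit of RNase H2, and SMG6, the endonuclease of nonsense-mediated decay, had an adjusted p under 0.05 with log2 fold changes of 0.20, 0.42 and 0.54, under the fold limit. None of the 13 core and catalytic exosome genes passed. Their median log2 fold change was 0.16, with single genes from −0.13 to 0.28.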

How the data were processed

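Poly(A)-enriched RNA of 3 A375neg and 3 A375RIPK4.KO libraries was sequenced. The authors deposited raw counts per gene, whole numbers without normalization, from which every value here was computed. The submitters' processing notes name cutadapt, FastQC, HISAT2, HTSeq, DESeq2 and the build GRCh38.p13, with no role, order or strand setting. Beside them the authors deposited a normalized signal (counts over a size factor) and, from their DESeq2 test, the fold ratio, its log2, a Wald score and p-values, and none of these was used.

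The groups were compared over all 6 libraries by the quasi-likelihood test of edgeR 4.0.16 (R 4.3.3), after filterByExpr and TMM scaling, and the steps were tested on simulated data. Alternatives were DESeq2 1.42.0, its size factors, no filter, a mean of at least 50, no fold limit, a replicate block and each library left out. Whether the cultures were separate beyond the labels' replicate numbers was not tested, so p-values measure the spread between these libraries. Exact permutation tests over libraries used log2 ratios with a prior count of 2. Gene spans, starts and promoters are from RefSeq GRCh38.p14, with each start taken as the outer end of the whole span, and exon lengths from GENCODE. In 19203 rows compared, the table's exon lay inside the RefSeq gene for 98.3%. Of the antisense genes, 215 had a RefSeq position and 166 had GENCODE exons.

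The members and lists were chosen with earlier results of these data known. Text names called antisense genes, the 5 most abundant, their sense genes, pairs with a called sense gene and an unadjusted antisense p under 0.05, called machinery genes and RIPK4. The remaining pairs with a called sense gene were added after their values were seen. Figures were drawn with matplotlib 3.10.9.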

Additional observations from a re-analysis of the deposited data

How the results depend on the processing

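Of 16 called antisense genes, 8 were higher. Without the filter on low counts 5 antisense genes were called higher and 2 pairs had both genes called. Asking for a mean of at least 50 raw counts left 119 antisense genes. Of these 9 (7.56%) were called, 3 of them higher, beside 9.04% of all genes tested at any count. That minimum gave 8 called sense genes, 2 pairs with both called and 60 of 104 pairs with the same sign. With no limit on the fold change 25 of the 194 sense genes tested were called, beside 16.6% of all genes tested. With 1 library left out, 6 to 13 antisense genes were called, 2 to 7 higher and 4 to 8 lower, and 2 to 3 pairs had both genes called. DESeq2 called 15 antisense genes, without FGF13-AS1 and IGF2BP2-AS1 and with PRKCQ-AS1. Same-numbered libraries did not deviate together (correlations of their deviations 0.08, 0.04 and −0.01), so the numbers were not taken to pair them. With the replicate number as a block, 12 antisense genes were called, 4 higher, with EPHA2-AS1, FGF13-AS1, IGF2BP2-AS1, SLC25A34-AS1 and ZFPM2-AS1 lost and ITGB2-AS1 gained, and PLXNB3-AS1 changed sign, to a log2 fold change of 0.00205.

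For 60 single genes in 10 alternatives each, 516 of 600 values kept sign and call, 69 lost the call, 1 gained it and 14 changed sign, none of the last in a called gene. Besides the block, the sign changes came with a library left out, over which the log2 fold change ran from −0.00999 to 0.94 for BCAN, −0.36 to 0.20 for FLG-AS1, −0.88 to 0.0211 for HSD17B1, −0.0165 to 0.0552 for IGF2BP2, −0.0452 to 0.25 for PAX8, −0.25 to 0.32 for PLXNB3-AS1, −0.17 to 0.0420 for PRR7, −0.00453 to 0.22 for TRHDE-AS1 and −0.19 to 0.50 for WDFY3-AS2. The cause was not tested. Of antisense genes with a mean under 50 raw counts 7.07% were called, and of the others 7.56%.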
